A study of Mus musculus with 4 samples.

Results

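Glucocorticoid response genes were followed in dermal white adipose tissue (dWAT), the fat layer that surrounds hair follicles (HFs). They were chosen by name as 7 of the 22913 genes listed: the receptor Nr3c1, the hormone-activating enzyme Hsd11b1, and the induced targets Fkbp5, Tsc22d3, Sgk1, Zbtb16 and Klf9. All 7 were listed above 0 in every library. RNA was sequenced from dWAT of C57BL/6 mice in 4 groups, with 1 library per group: OTD (old mice, telogen), YTD (young mice, telogen), OAD (old mice, anagen) and YAD (young mice, anagen). Old mice were 18 months of age and young mice 2 months, telogen is the resting phase of the hair cycle, and anagen, the growth phase, was induced by depilation. The age field of the labels gives 18 months for YTD and 2 months for OAD, against their titles, and the titles were followed. The tissue of each group came from several mice by microdissection, and no library has a replicate. A difference between libraries is therefore a description, with no test and no known spread between mice.

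Glucocorticoids, corticosterone in the mouse, cross the cell membrane and bind the glucocorticoid receptor, which waits in the cytoplasm in a complex of heat shock proteins. The bound receptor moves to the nucleus, where it switches on genes near its DNA motif and lowers the transcription of many cytokine and matrix genes. Fat regenerates active hormone from its inert form, and glucocorticoids drive adipocyte differentiation and lipid turnover.

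The receptor binds as a pair to a palindrome whose textbook form is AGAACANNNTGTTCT. Promoter windows (300 bases, most of them before a start site, RefSeq, GRCm38.p6) were searched on both strands for this form, for the looser GNACANNNTGTNC that contains it, and for the single site AGAACA that it also contains. Windows were found for 5 of the glucocorticoid response genes, Hsd11b1, Fkbp5, Tsc22d3, Sgk1 and Klf9. The full palindrome stood in 3 of all 32851 windows (0.00913%), and 1 of these 3 belonged to Sgk1. It is shown because no other window of these genes, or of the 34 other induced targets that had one, held the exact form. The stretch lies at chr10:21993640-21993789 on the + strand, within the annotated extent of Sgk1 and outside any exon, with the palindrome in capitals, its centre 182 bases before the start site at 21993890.
Sgk1 upstream stretch: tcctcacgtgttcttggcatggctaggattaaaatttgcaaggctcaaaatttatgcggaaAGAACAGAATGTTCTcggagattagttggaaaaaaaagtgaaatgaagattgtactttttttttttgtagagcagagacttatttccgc

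The looser form stood in 156 of all windows (0.475%), in 1 of the 12 windows of these genes and in 6 of the 42 windows of the other induced targets. The sites of Sgk1 and of the 5 other induced targets that hold one are set side by side, each on its gene's strand with the match in capitals.
Sgk1, chr10:21993694-21993722, + strand: tgcggaaaGAACAGAATGTTCtcggagat
Fam107a, chr14:8309877-8309905, - strand: ggtggcttGGACATGGTGTTCtgagtctc
Map3k6, chr4:133240629-133240657, + strand: gaatagggGCACAGGCTGTTCcggaagtg
Mt1, chr8:94178987-94179015, + strand: cactatagGGACATGATGTTCcacacgtc
Slc10a6, chr5:103629546-103629574, - strand: cttccctaGAACACGATGTGCcactgtcg
Trim63, chr4:134314904-134314932, + strand: ctggctctGAACAGTCTGTTCttgtttac
Of these 6 sites, only that of Sgk1 is the exact palindrome. None of the 17 windows of repressed targets held the looser form. The single site AGAACA stood in 4 of the 12 windows, those of Sgk1 and Tsc22d3, and in 19.0% of all windows. A match is a description of letters, and binding was not measured.

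The genes that carry these sites did not share a pattern over the libraries. On the log2(FPKM + 1) scale the change from young telogen to young anagen was -0.94 for Sgk1, -1.17 for Fam107a and -2.79 for Trim63, a muscle ubiquitin ligase. In the same comparison it was 1.83 for the kinase gene Map3k6 and 1.72 for the metal-binding Mt1. Slc10a6, a transporter of steroid sulphates, stood at 8.36 FPKM in OTD and 4.09 in YTD, against 3.43 in OAD and 4.09 in YAD. As deposited OTD was thus its one high library. Summed FPKM was lower in the anagen libraries, at 814616 in OAD and 693715 in YAD against 1249613 in OTD and 1245973 in YTD. That reading therefore depends on the scaling, as it does for Hsd11b1 below.

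FPKM, fragments per kilobase of feature scaled to the library, compares levels between genes per length. The libraries held about 17900000 to 23800000 fragments by an estimate from the lowest values, and the 95% intervals given here are exact (Clopper-Pearson) intervals on the fragments this implies, covering counting error only. Adipocyte markers were present, all 15 above 0 in each library, and made up 1.1% of all FPKM in OTD and 1.03% in YTD, against 0.472% in OAD and 0.405% in YAD. Skeletal muscle markers made up 6.53% in OTD and 10.3% in YTD, against 2.33% in OAD and 2.08% in YAD, and genes of the mitochondrial genome took 52.7%, 44.7%, 18.3% and 14.4% in the same order. Hair shaft markers took 0.0201% in OTD and 0.0371% in YTD against 3.18% in OAD and 3.17% in YAD, so HF transcripts were far higher in the anagen libraries. In bulk tissue, fewer cells of a type and less RNA per cell cannot be told apart.

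Nr3c1 encodes the glucocorticoid receptor, a transcription factor that nearly all cells carry (chromosome 18, 39410545 to 39491301, GRCm38). Its level was 27.5 FPKM in OTD and 26.7 in YTD, against 9.74 in OAD and 10.2 in YAD. Old and young libraries were alike in each phase within counting error, with an OTD to YTD ratio of 1.03 (95% interval 0.953 to 1.12) and an OAD to YAD ratio of 0.958 (0.843 to 1.09). As deposited both telogen libraries stood above both anagen libraries, by 2.62-fold in young mice (2.35 to 2.94) and 2.82-fold in old mice (2.56 to 3.13). In TPM the log2 changes from telogen to anagen, -1.31 and -1.41 as deposited, were smaller, at -0.52 and -0.83.

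Hsd11b1 encodes the enzyme that regenerates active glucocorticoid inside the cell (chromosome 1, 193221634 to 193264075). It stood at 16.8 FPKM in OTD and 8.35 in YTD, against 7.83 in OAD and 8.67 in YAD. As deposited OTD was the one high library, 2.01-fold above YTD (1.63 to 2.47) and 2.14-fold above OAD (1.76 to 2.61), while YAD, YTD and OAD were within counting error of their neighbours in the order. The change of 0.93 in telogen was above those of 97.2% of the 12982 genes that reached an FPKM of 1 in telogen. In anagen the OAD to YAD ratio was 0.903 (0.715 to 1.14). Scaled to TPM (a fixed sum per library), OTD stood 0.9 above YTD on the log2 scale and YAD 0.81 above it, so that YAD was then nearly as high as OTD.

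Among the targets, Fkbp5 encodes a co-chaperone that binds the receptor complex and lowers its affinity for hormone (chromosome 17, 28399095 to 28517524). Its level was 21.9 FPKM in OTD and 27.5 in YTD, against 11.3 in OAD and 18.6 in YAD. The old library was below the young one in both phases, by 1.26-fold in telogen (1.13 to 1.41) and 1.65-fold in anagen (1.44 to 1.9). In anagen its change of -0.68 was among the lowest of the 13068 genes at an FPKM of at least 1, of which 1.73% were lower still. As deposited Fkbp5 was below telogen in anagen, by 1.47-fold in young mice (1.31 to 1.66) and 1.94-fold in old mice (1.7 to 2.21). In TPM the change from telogen to anagen was 0.27 in young and -0.32 in old mice.

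Tsc22d3 encodes the leucine zipper protein GILZ, which carries part of the anti-inflammatory action of glucocorticoids (chromosome X, 140539528 to 140600659). It had the highest level of the 7 genes in each library, at 219.8 FPKM in OTD and 224.6 in YTD, against 48.6 in OAD and 61.1 in YAD. The telogen libraries were alike within counting error, with a ratio of 0.979 (0.926 to 1.03), and in anagen the old library was 1.26-fold below the young one (1.13 to 1.4). As deposited anagen stood below telogen by 3.68-fold in young mice (3.38 to 4.01) and by 4.52-fold in old mice (4.16 to 4.92). In TPM these log2 changes went from -1.86 to -1.03 in young and from -2.15 to -1.54 in old mice.

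Sgk1 encodes a kinase that acts on ion channels and transporters, and it carries the palindrome shown above (chromosome 10, 21882184 to 21999903). Its level was 76.7 FPKM in OTD and 67.3 in YTD, against 44.2 in OAD and 34.5 in YAD. It was the one gene of the 7 whose old library was above the young one beyond counting error in both phases, by 1.14-fold in telogen (1.07 to 1.21) and 1.28-fold in anagen (1.18 to 1.39). The anagen libraries were below those of telogen, by 1.95-fold in young mice (1.81 to 2.11) and 1.73-fold in old mice (1.63 to 1.85). This difference rested on the scaling, since in TPM the changes of -0.94 and -0.78 became -0.12 and -0.17, about as small as the age changes of 0.18 in telogen and 0.12 in anagen.

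Zbtb16 encodes the zinc finger factor PLZF, a strongly induced target in many cell types (chromosome 9, 48654311 to 48835945). It was the lowest of the 7 genes in every library but YTD, where Hsd11b1 was lower, at 7.5 FPKM in OTD and 13.4 in YTD, against 4.18 in OAD and 5.28 in YAD. The old library was below the young one in both phases, by 1.78-fold in telogen (1.54 to 2.06) and 1.26-fold in anagen (1.03 to 1.55). As deposited all neighbours in the order YTD, OTD, YAD, OAD differed beyond counting error. In TPM the change against YTD was -0.74 for OTD and -0.44 for YAD, so that YAD then stood above OTD.

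Klf9 encodes a Krüppel-like factor that the receptor induces and that also follows the circadian clock (chromosome 19, 23141226 to 23166911). It stood at 52.7 FPKM in OTD and 48.1 in YTD, against 10.3 in OAD and 11.8 in YAD. Within each phase the old and young libraries were alike within counting error, with ratios of 1.09 (0.986 to 1.22) and 0.873 (0.7 to 1.09). In TPM its log2 change from telogen to anagen went from -1.94 to -1.14 in young and from -2.25 to -1.66 in old mice. As deposited the span of Klf9 over the libraries was the widest of the 7 genes, 5.11-fold from highest to lowest. Tsc22d3 followed with 4.62-fold, then Zbtb16 with 3.19-fold and Nr3c1 with 2.82-fold. Fkbp5 spanned 2.44-fold, Sgk1 2.22-fold and Hsd11b1 2.14-fold.

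**Figure D1:**
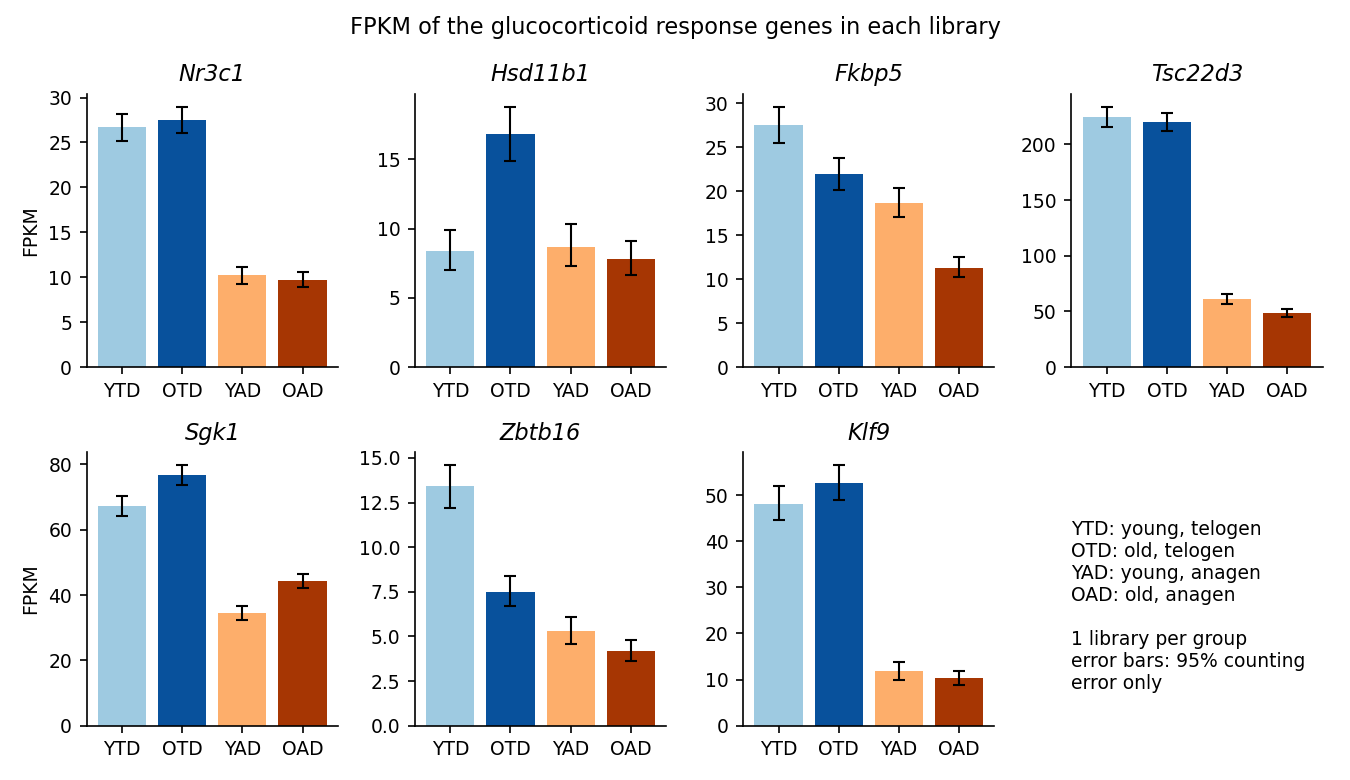
FPKM (vertical axes, each from 0) of the 7 glucocorticoid response genes in the 4 libraries, 1 bar per library, with bars of 95% counting error only. On this deposited scale Nr3c1, Tsc22d3, Sgk1, Klf9, Fkbp5 and Zbtb16 stand higher in both telogen libraries than in both anagen libraries. Hsd11b1 is high there in OTD alone. In TPM YAD is 0.81 above YTD for Hsd11b1 and 0.27 above it for Fkbp5, and for Zbtb16 YAD is above OTD. The changes of Sgk1 in TPM are -0.12 in YAD against YTD and -0.17 in OAD against OTD.

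With age in telogen, the 7 genes went in both directions and none differed by 2-fold or more on the log2(FPKM + 1) scale. In OTD against YTD 4 were higher and 3 lower, with changes from -0.76 for Zbtb16 to 0.93 for Hsd11b1 and a median of 0.04, beside a median of -0.06 over all genes at an FPKM of at least 1. Over all genes 2.71% were at least 2-fold apart in this comparison, and 4.78% of those at an FPKM of at least 1. The changes of 4 of the 7 were beyond counting error, those of Hsd11b1, Fkbp5, Sgk1 and Zbtb16. The share of all genes beyond counting error was not computed, so this count has no background beside it. The sign of the small change of Tsc22d3, -0.03, turned to 0.03 when the libraries were scaled by the median of ratios and to 0.19 without mitochondrial genes. Without those genes the changes were 0.26 for Nr3c1, 0.35 for Klf9 and -0.11 for Fkbp5, so which of the 7 were beyond counting error depended on the scaling. That last scaling moved the median of all genes to 0.12, and the share of the 2-fold calls that were higher in OTD from 46.3% to 72.5%.

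With age in anagen, 6 of the 7 genes were lower in OAD than in YAD and Sgk1 was higher. The median change was -0.18, beside a median of 0 over all genes at an FPKM of at least 1. None was 2-fold apart, as were 0.908% of all genes and 1.59% of those at an FPKM of at least 1. The changes of Fkbp5, Tsc22d3, Sgk1 and Zbtb16 were beyond counting error, and the share of all genes beyond it was again not computed. In TPM the median of all genes was -0.21 and that of the 7 genes -0.4. The share of 2-fold calls that were higher in OAD went from 61.5% to 37.3%. The 2 age comparisons share no library, and Fkbp5 and Zbtb16 were lower, and Sgk1 higher, in the old library of both.

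For Nr3c1, Tsc22d3 and Klf9 the changes between phases were larger in size than those between ages. In YAD against YTD 6 of the 7 were lower and 4 of them at least 2-fold lower, Nr3c1 (-1.31), Tsc22d3 (-1.86), Zbtb16 (-1.19) and Klf9 (-1.94), with a median of -1.19. Of all genes 12.8% were at least 2-fold lower, and 21.4% of those at an FPKM of at least 1, whose median was 0.03. In OAD against OTD all 7 were lower and 4 at least 2-fold lower, Nr3c1 (-1.41), Hsd11b1 (-1.01), Tsc22d3 (-2.15) and Klf9 (-2.25), with a median of -1.01. There 12.0% of all genes were at least 2-fold lower, and 19.9% of those at an FPKM of at least 1, whose median was 0.05. Each phase comparison shares a library with each age comparison, so their values are not independent.

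The phase values depended on the scaling, because the summed FPKM differed between libraries, at 1249613 in OTD and 1245973 in YTD, against 814616 in OAD and 693715 in YAD. In TPM the median of all genes stood at 0.76 in YAD against YTD and 0.58 in OAD against OTD, and Tsc22d3 and Klf9 alone of the 7 were at least 2-fold lower, in both comparisons. Fkbp5 had the other sign in TPM in YAD against YTD, from -0.54 to 0.27. In TPM the median of the 7 genes was -0.44 in both comparisons. A scaling shifts all genes of a library alike, so the distance of the 7 genes from the median of all genes, -1.22 in young and -1.06 in old mice as deposited, barely depends on it by construction. The share of all 2-fold calls that were higher in anagen went from 49.1% to 82.2% in young mice and from 50.8% to 76.6% in old mice with TPM. Without mitochondrial and muscle genes, it was 37.0% in old mice.

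**Figure D2:**
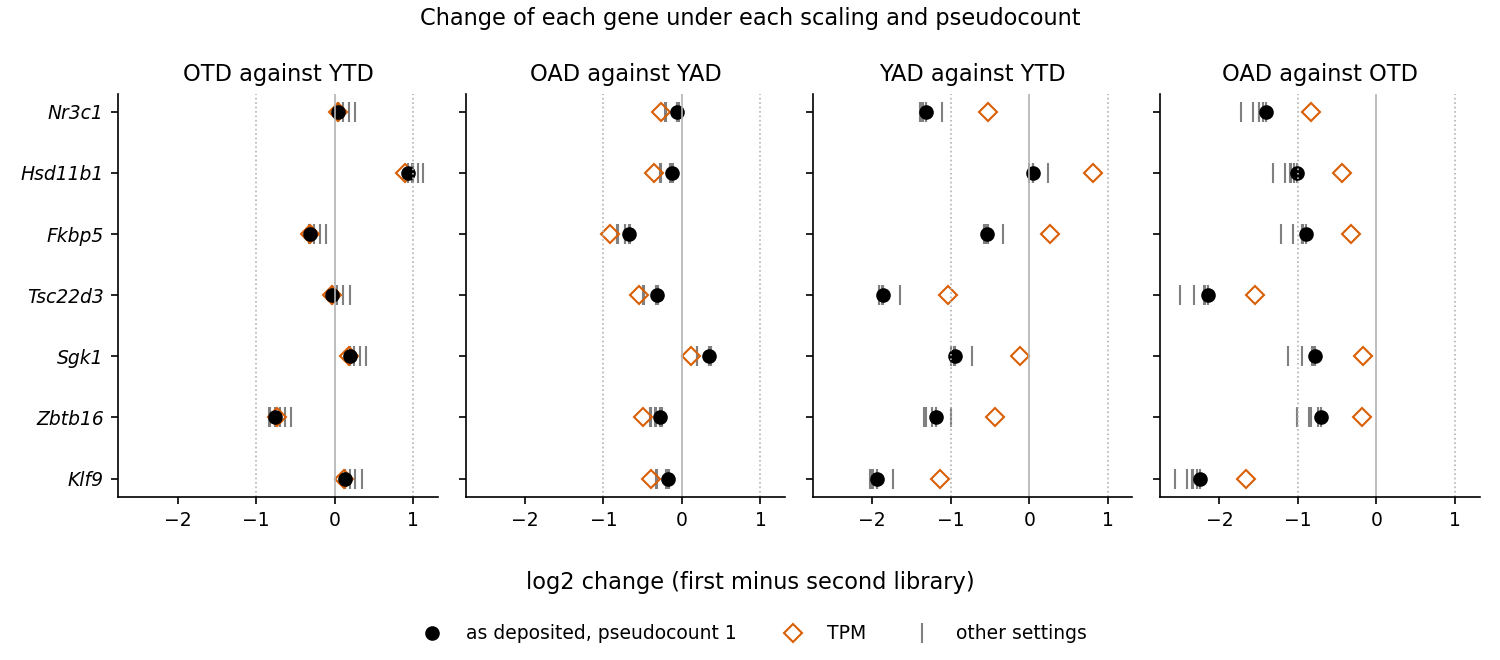
Change (horizontal axes, log2, first minus second library) of each of the 7 genes in the 4 comparisons, as deposited with a pseudocount of 1 (filled circles), in TPM (diamonds) and under the other pseudocounts and scalings (ticks); dotted lines mark 2-fold. In the age comparisons the settings lie closer together than in the phase comparisons. Even so, Tsc22d3 crosses 0 in OTD against YTD, from -0.03 as deposited to 0.19 without mitochondrial genes. In the phase comparisons TPM lies to the right of the deposited values, with Fkbp5 crossing 0 in YAD against YTD.

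Markers of several cell types were lower in anagen, as were 6 of the 7 genes in young and all 7 in old mice. Adipocyte markers had a median change of -1.71 in young and -1.43 in old mice, with 15 of 15 lower in each, and endothelial markers had medians of -1.57 and -1.85, with 12 of 12 lower. Macrophage markers had medians of -1.39 and -2.05, fibroblast markers -1.09 and -2.58, and skeletal muscle markers -3.06 and -1.99. Epidermal markers went the other way with medians of 2.65 and 3.2, as did hair shaft markers with 5.35 and 6.43 and melanocyte markers with 4.17 and 3.62. The part of this change of cell makeup in the levels of the 7 genes was not tested. As deposited the medians of the glucocorticoid response genes were -1.19 and -1.01. Those of adipocyte, endothelial, macrophage and muscle markers were further from 0 in both ages. That of fibroblast markers was closer to 0 in young mice (-1.09) and further in old mice (-2.58). In TPM the fibroblast median in young mice was -0.28, with 4 of 12 higher, beside -0.44 for the 7 genes.

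**Figure D3:**
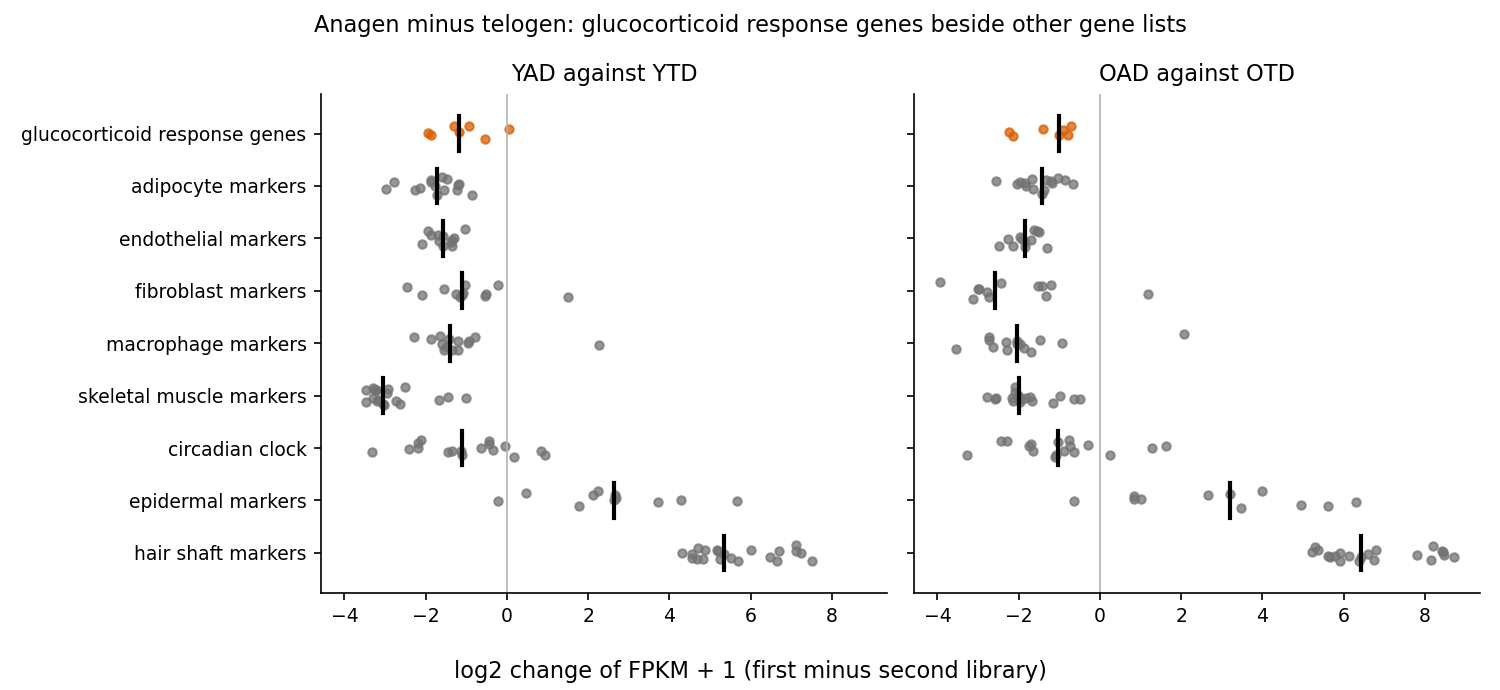
Change from telogen to anagen (horizontal axes, log2 of FPKM + 1, anagen minus telogen library) in young (left) and old mice (right), 1 point per gene at an FPKM of at least 1, with the list median as a bar. The glucocorticoid response genes (medians -1.19 and -1.01) lie on the same side of 0 as adipocyte, endothelial, fibroblast, macrophage and muscle markers and opposite to epidermal and hair shaft markers.

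In the age comparisons the same markers differed less. In telogen endothelial markers were higher in OTD for 12 of 12 (median 0.58) and macrophage markers for 13 of 14 (0.42), muscle markers were lower for 19 of 19 (-0.7), and adipocyte markers were divided, 7 higher and 8 lower (-0.1). Hair shaft markers were lower in OTD for 20 of 20 (-0.98). In anagen adipocyte markers were higher in OAD for 15 of 15 (0.31), but for 10 of 15 in TPM (0.08). Fibroblast markers were lower in OAD for 11 of 12 (-0.65), macrophage markers for 10 of 10 (-0.24) and melanocyte markers for 9 of 9 (-0.73). The part of these markers in the age values of the 7 genes was not tested. T cell markers were near 0, with 1 of 7 at an FPKM of at least 1 in each comparison.

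The other genes that set the supply of hormone were few. H6pd, which makes the cofactor of the Hsd11b1 enzyme, stood at 24.9 FPKM in OTD and 24.3 in YTD, against 8.2 in OAD and 8.36 in YAD, lower in anagen as Nr3c1 was, but not higher in OTD as Hsd11b1 was. Hsd11b2, whose enzyme inactivates the hormone, was low, at 0.0367 FPKM in OTD and 0.0788 in YTD, against 0.369 in OAD and 1.1 in YAD. Of 21 genes of hormone synthesis, transport and breakdown, 6 reached an FPKM of 1 in a telogen library and 8 in an anagen library. Cyp11b2, Hsd3b1, Serpina6 and Crh were listed at 0 in all 4 libraries, and Cyp11b1, which makes corticosterone, in all but OTD, where it stood at 0.0626.

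Nr3c2, the mineralocorticoid receptor, which also binds glucocorticoids, was lower than Nr3c1 in each library, at 6.0 FPKM in OTD and 5.49 in YTD, against 1.05 in OAD and 0.578 in YAD. Its change in anagen was -2.04 in young and -1.77 in old mice. The 25 genes of the receptor machinery (Nr3c2, chaperones, import factors and coregulators) had median changes of -0.24 in OTD against YTD and -0.01 in OAD against YAD (-0.24 in TPM). In OTD 3 were at least 2-fold higher, the heat shock genes Hspa1a (1.68), Hspa1b (1.65) and Dnajb1 (1.37). Beside these, 287 of all 12982 genes at an FPKM of at least 1 were at least 2-fold higher. Between phases their medians had the sign opposite to Nr3c1, with values of 0.51 in young and 0.43 in old mice. Fkbp4, the co-chaperone that competes with the product of Fkbp5, stood at 54.7 FPKM in OTD and 82.3 in YTD, against 106 in OAD and 118 in YAD. As deposited Fkbp4 was thus higher in anagen, where Fkbp5 was lower. In TPM Fkbp5 was also higher in anagen in young mice, with a change of 0.27, but not in old mice (-0.32).

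Other induced targets were mostly higher in the old telogen library, and whether they differed from the 7 genes was not tested. Of 36 at an FPKM of at least 1, 26 were higher in OTD than in YTD, against 44.0% of all such genes, with a median of 0.29. At least 2-fold higher were 8, against 4.78% of all such genes at least 2-fold apart in either direction. The 8 were Zfp36 (1.66), which destabilizes cytokine mRNA, the lipocalin Lcn2 (1.57), the insulin receptor substrate Irs2 (1.5), the phosphatase Dusp1 (1.31), Errfi1 (1.16), Angptl4 (1.09), Pck1 (1.06) and Pdk4 (1.06). Dusp1 and Zfp36 are also immediate early genes, a list of which 22 of 22 were higher in OTD and 19 at least 2-fold higher (median 1.37). The part of that immediate early change in the values of the induced targets was not tested. In anagen the 36 had a median of 0.18 between ages, which turned to -0.05 in TPM, and Lyve1 (-1.24), which also marks lymphatic vessels, was the one gene at least 2-fold apart. With the phase 20 of 36 were lower in young and 27 of 36 in old mice, with medians of -0.18 and -0.89. Of all genes at an FPKM of at least 1, 49.1% and 48.4% were lower. In TPM the direction in young mice turned, with 22 of 36 higher and a median of 0.58, beside 0.76 over all such genes. The median in old mice was -0.33, beside 0.58 over all such genes.

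Repressed targets, the cytokine, adhesion and matrix genes whose transcription glucocorticoids lower, were also higher in old telogen. Of 15 at an FPKM of at least 1, 13 were higher in OTD and 8 at least 2-fold higher, with a median of 1.08. Of all genes at that level 44.0% were higher in OTD, and 287 of 12982 at least 2-fold higher. Cxcl1, Il6 and Il1b, 3 of the 8, reached an FPKM of 1 through OTD alone, so the filter itself favoured higher counts. The largest changes were those of the chemokine Cxcl1 (3.86), Il6 (2.55), the chemokine Ccl7 (1.74) and the endothelial adhesion gene Sele (1.54). In anagen OAD was below YAD for 6 of 10, the median being -0.28. Of all genes at an FPKM of at least 1, 50.1% were lower in OAD, and 80 of 13068 at least 2-fold lower. The 3 repressed targets at least 2-fold lower were the collagens Col1a1 (-1.9), Col1a2 (-1.8) and Col3a1 (-1.48), which are also fibroblast markers. Induced and repressed targets both had positive medians in OTD.

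**Figure D4:**
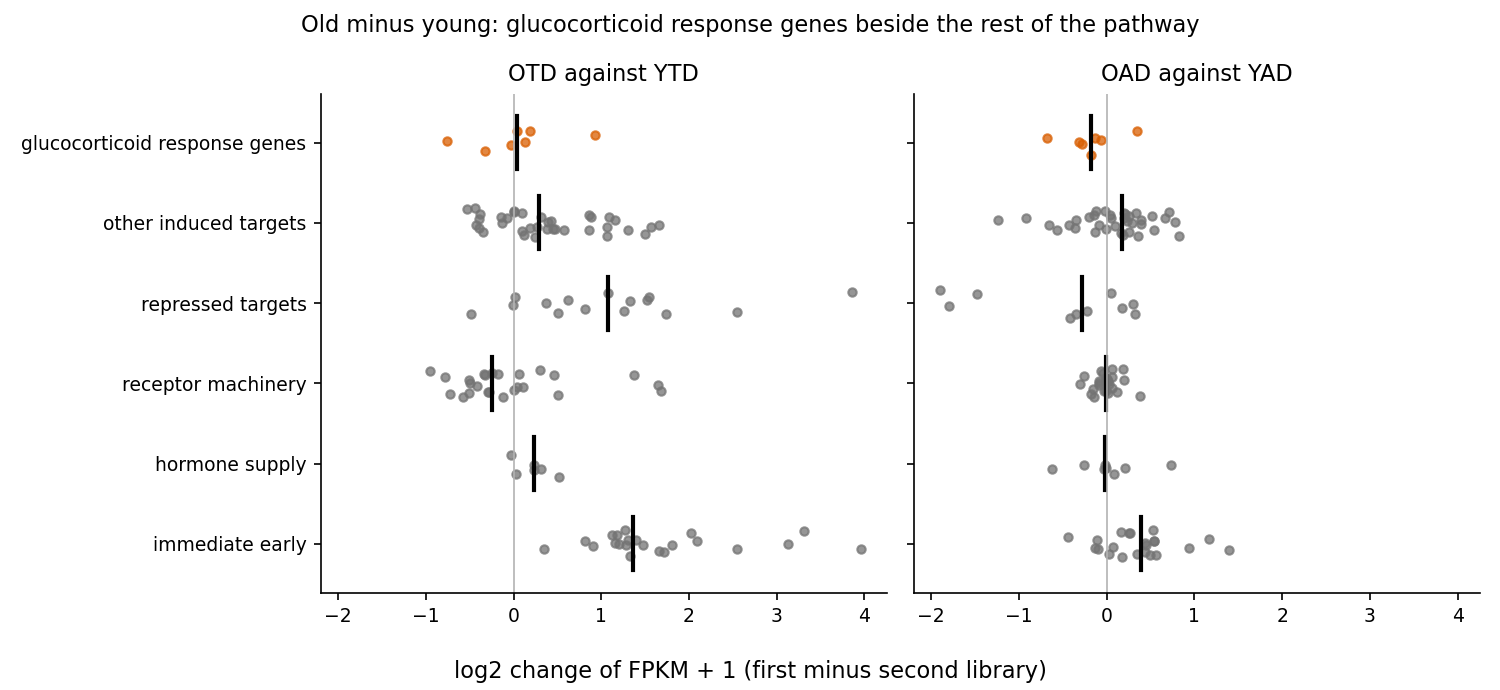
Change with age (horizontal axes, log2 of FPKM + 1, old minus young library) in telogen (left) and anagen (right), 1 point per gene at an FPKM of at least 1, with the list median as a bar. In telogen the glucocorticoid response genes centre on 0.04, the other induced targets on 0.29, the repressed targets on 1.08 and the immediate early genes on 1.37.

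Relatives of the 7 genes in their families did not all follow them. Of the TSC22 family, Tsc22d1 had changes in anagen of -0.62 in young and -0.89 in old mice, and Tsc22d3 was the one member at least 2-fold lower in anagen in either age. Of the SGK kinases, Sgk3 went opposite to Sgk1 with the phase, at 7.0 FPKM in OTD and 5.67 in YTD, against 20.2 in OAD and 16.9 in YAD, and Sgk2 stayed below 1 FPKM in each library. Klf15, another receptor target with a role in amino acid and lipid metabolism, was near Klf9 in its order, at 23.3 FPKM in OTD and 28.0 in YTD, against 9.52 in OAD and 10.4 in YAD. In the KLF family 5 of 13 genes were at least 2-fold higher in OTD than in YTD, whereas Klf9 had a change of 0.13. Of all genes at an FPKM of at least 1, 287 of 12982 were at least 2-fold higher there. Klf2, Klf4 and Klf6, 3 of the 5, are also on the immediate early list. Of the estrogen, androgen and other steroid receptors at an FPKM of at least 1, 4 of 4 were lower in anagen, Nr3c1 and Nr3c2 among them.

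Klf9 is also tied to the circadian clock, and clock genes were set beside it. Of 17 at an FPKM of at least 1, 9 were at least 2-fold lower in anagen in young mice (median -1.1) and 9 in old mice (-1.04), beside 21.4% and 19.9% of all such genes, and none was 2-fold apart between ages. In TPM the clock medians were -0.36, with 8 of 17 higher, and -0.5. Per1, a clock gene that the receptor also induces, stood at 21.9 FPKM in OTD and 20.4 in YTD, against 13.7 in OAD and 14.7 in YAD. The hour of tissue collection is not given in the sources used here, and its part in these values was not tested. 

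The genes most like Klf9 and Tsc22d3, the pair with the widest span, were found by the distance between centred log2(FPKM + 1) values over the 4 libraries, among 9197 genes whose mean FPKM was at least 5. Nearest to Klf9 were Spi1 (distance 0.091), Tppp (0.11) and Fzd4 (0.12), and 30 genes lay within 0.25. Nearest to Tsc22d3 were Tppp (0.094), Cpne2 (0.11) and Fzd4 (0.11), and 20 genes lay within 0.25. What genes so alike have in common beyond these 4 values was not tested.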

How the data were processed

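RNA sequencing measured gene expression in mouse dWAT, in 4 libraries, 1 per group. The authors deposited FPKM for 22913 features per library with positions on GRCm38. The submitters' processing notes name bcl2fastq and TopHat2, and the counting tool and annotation are not given in the sources used here. Of the feature lengths, 97.0% are multiples of 3, as coding lengths are. FPKM were used as deposited, and a change is a difference of log2(FPKM + 1), counted at 2-fold or more.

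No test, p-value or replicate spread exists with 1 library per group. Depth, about 17900000 to 23800000 fragments, was estimated roughly from the lowest FPKM values of features of 2000 to 4000 bases, and intervals cover counting error only. On simulated data only the counting of changes at 2-fold or more was tested, with planted changes above that size. The intervals, scalings, motif search and distances were not tested in that way. Python 3.11.15, numpy 2.4.6, pandas 2.3.3, scipy 1.17.1 and matplotlib 3.10.9 were used.

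The 7 genes and all gene lists were chosen with earlier results of these data known. Symbols came from the annotation tables, and 1 other induced target and 4 marker genes of the lists were not analysed here. Genes named are the 7 genes, from each list the largest changes in each age comparison, named relatives, and the genes most like the 2 genes of widest span. Other genes were named after their values were seen, those with promoter matches for the match, the rest as the counts required. Alternatives were pseudocounts of 0.1 and 0.01, a filter at an FPKM of 1, median-of-ratios scaling, TPM, removal of mitochondrial genes with and without muscle markers, and a threshold of 1.5-fold.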

Additional observations from a re-analysis of the deposited data

Results flagged for a closer look

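As deposited, the change with age had opposite signs in telogen and anagen for 3 of the 7 genes. The share of all genes with opposite signs was not counted. The difference between phases was not tested, since each group has 1 library. The change of Hsd11b1 was 0.93 in telogen, beyond counting error, and -0.13 in anagen, within it. That of Klf9 was 0.13 and -0.18, and that of Nr3c1 0.04 and -0.06, all within counting error as deposited. Without mitochondrial genes the telogen changes were 0.35 for Klf9 and 0.26 for Nr3c1, beyond it.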

How the results depend on the processing

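No library could be left out, since each group has 1. No paired analysis was possible because each group holds 1 library. Over all genes, the counts at least 2-fold apart were 620 (OTD against YTD), 208 (OAD against YAD), 5767 (YAD against YTD) and 5613 (OAD against OTD). In that order they became 3445, 2435, 9761 and 9616 with a pseudocount of 0.01, and 2754, 875, 9213 and 9009 at a threshold of 1.5-fold. A pseudocount of 0.1 gave 2144 and 1109 in the age comparisons. Of the glucocorticoid response genes, 0 were at least 2-fold apart in OTD against YTD as deposited, and 1, Hsd11b1, with a pseudocount of 0.01, without mitochondrial genes, or without mitochondrial and muscle genes. At 1.5-fold 2 were apart there, Hsd11b1 and Zbtb16, and 1, Fkbp5, against 0 in OAD against YAD. The 4 lower genes of each phase comparison became 2 in TPM, Tsc22d3 and Klf9. In OAD against OTD they became 7 at 1.5-fold and 7 without mitochondrial and muscle genes. Of 49 gene changes under alternatives in each comparison, 8, 7, 11 and 17 left the counting interval in the order given first. The filter at an FPKM of 1 cannot alter the change of a gene, so its 7 values in each comparison could not move. At this depth the age ratios of Nr3c1 and Klf9 in both phases, of Tsc22d3 in telogen and of Hsd11b1 in anagen were within counting error.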
